A study of Mus musculus with 6 samples.

Results

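The genes described here encode the D-type cyclins, the kinases they activate, the inhibitors of those kinases and the retinoblastoma protein. They were taken by symbol (Ccnd1, Ccnd2, Ccnd3, Cdk4, Cdk6, Cdkn1a, Cdkn1b, Cdkn1c, Cdkn2c and Rb1), with every probe set that the platform annotation gives to 1 of these symbols alone. This gave 27 probe sets of the 45101 on the array, for 10 genes of 18193 named. The samples were optic fissures, the ventral groove of the optic cup, cut by laser microdissection from C57BL/6J mouse embryos at E11.5. The 3 control samples had the genotype Six3Cre-;Fgfr1fx/fx;Fgfr2fx/fx and the 3 mutant samples Six3Cre+;Fgfr1fx/fx;Fgfr2fx/fx, so all 6 carried floxed alleles of both FGF receptor genes. Mutants alone carried the Cre transgene, which is active in the Six3 domain of the early eye and forebrain, and cells of other origin, such as mesenchyme and blood vessels, lie outside that domain. Each of the title numbers 8711, 9216 and 9266 names 1 control and 1 mutant array, and the labels do not say what the number stands for or whether embryos were pooled. The p-values below therefore describe the scatter among these arrays alone, part of which can be technical.

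D-type cyclins link growth signals to the cell cycle. Receptor signalling through ERK and other pathways raises their transcription, the cyclins bind CDK4 or CDK6, and the active kinases phosphorylate the retinoblastoma protein, which then releases E2F factors to switch on genes of DNA replication. Inhibitors of the INK4 family, such as p18, the product of Cdkn2c, block CDK4 and CDK6, while those of the CIP/KIP family, the products of Cdkn1a (p21), Cdkn1b (p27) and Cdkn1c (p57), act mainly on CDK2 complexes. In the mouse eye, cyclin D1 is the main D cyclin of retinal progenitors, and mice without it have a small, thin retina.

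Sequence upstream of the start sites is shown for both kinase genes, which share their cyclin partners, and for Ccnd3. RefSeq entries (GRCm38.p6) were found for 6 of the 10 genes, with 9 start sites. Ccnd1, Ccnd2, Cdkn1c and Rb1 were not matched. Each sequence is the 250 bases before a start site, 5′ to 3′, with capitals marking the E-box CACGTG, which MYC and MAX bind. All are on the plus strand, Cdk4 at chr10:127063285-127063534, Cdk6 at chr5:3343643-3343892, and Ccnd3 at chr17:47504801-47505050 and chr17:47593217-47593466.
Cdk4: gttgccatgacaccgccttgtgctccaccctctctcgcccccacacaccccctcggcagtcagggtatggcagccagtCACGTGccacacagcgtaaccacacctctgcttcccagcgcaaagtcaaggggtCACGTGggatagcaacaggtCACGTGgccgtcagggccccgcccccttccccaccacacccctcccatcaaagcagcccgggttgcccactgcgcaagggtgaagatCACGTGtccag
Cdk6: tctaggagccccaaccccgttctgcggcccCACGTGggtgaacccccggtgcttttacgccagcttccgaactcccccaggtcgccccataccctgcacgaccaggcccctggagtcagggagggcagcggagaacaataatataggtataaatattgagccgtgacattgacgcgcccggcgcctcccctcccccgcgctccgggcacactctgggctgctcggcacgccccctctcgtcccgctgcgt
Ccnd3, start site 1: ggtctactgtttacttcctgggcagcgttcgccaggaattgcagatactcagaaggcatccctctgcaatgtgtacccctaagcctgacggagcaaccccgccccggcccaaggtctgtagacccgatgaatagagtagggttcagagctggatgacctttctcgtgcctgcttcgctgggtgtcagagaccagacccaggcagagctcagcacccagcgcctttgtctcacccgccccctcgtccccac
Ccnd3, start site 2: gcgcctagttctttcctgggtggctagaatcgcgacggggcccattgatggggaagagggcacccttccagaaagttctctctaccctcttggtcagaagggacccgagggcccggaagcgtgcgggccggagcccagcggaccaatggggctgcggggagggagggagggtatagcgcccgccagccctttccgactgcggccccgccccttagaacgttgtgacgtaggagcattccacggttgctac
The Cdk4 window held 4 E-boxes, between 11 and 172 bases before the start site, and the Cdk6 window held 1, at 220 bases. Of all 32851 RefSeq windows of the same length, 6.02% held at least 1 E-box and 0.0609% held at least 3. No E-box was found in the windows of the other genes. A search on both strands for the E2F motifs TTTCCCGC and TTTGGCGC, present in 1.3% of all windows, found 0 in the 9 windows. The CRE core TGACGT (6.47% of all windows) and the ETS core CCGGAA (12.0% of all windows) were each found in 1 window, that of Ccnd3 start site 2. These matches describe letters only, and the E-box was chosen for display after the sequences had been seen.

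Mutant array 8711 stood apart from the others. Its median intensity was 18.1, against 28.7 to 34.6 elsewhere, and the ratio of 3 prime to 5 prime signal of the Gapdh control probe sets was 93.6, against 4.26 to 15. For the Actb control probe sets the ratio was also the highest but by less, at 14.8 against 6.03 to 12.1. Values are therefore given with and without this array. Where values are set against each other, the controls come first and the mutants second, each in the order 8711, 9216 and 9266. Of the 27 probe sets, 24 passed the filter on low intensity, a mean log2 value of 4.07 (15.1 on the linear scale), and each of the 10 genes had at least 1 that passed. Fgfr1, a targeted receptor gene, read 247, 89.8 and 238 across control arrays 8711, 9216 and 9266 and 59.9, 64.1 and 141 across the mutant arrays in that order at its brightest probe set, with overlap. At 1436551_at it read 49.4, 48.3 and 48.5 against 38.8, 33 and 24.8, without overlap, and at 1425911_a_at 44.1, 15.6 and 26.7 against 13.9, 20.1 and 1.5, with overlap. Fgfr2 read 351, 314 and 474 against 869.9, 928 and 1316 at its brightest probe set, with all mutant values above the controls. A probe outside the floxed part checks nothing, and the place of the probes was not analysed here.

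Ccnd1 and Ccnd2 had lower values in the mutants at every probe set, 3 and 7 of them, and Cdk6 at both of its tested probe sets. The probe sets of Ccnd3 went both ways. Groups overlapped at every probe set of Ccnd3, Cdk4, the inhibitor genes and Rb1. They also overlapped at 1416124_at of Ccnd2 and 1435338_at of Cdk6. In limma with Benjamini-Hochberg adjustment over 27022 probe sets, 0 passed an adjusted p of 0.05 (0% of all probe sets, and 0% of the 12282 genes by their brightest probe set), so none of the differences below is called. At an unadjusted p under 0.05, 11 of the 24 tested probe sets were lower and 0 higher, where 2.55% of all tested probe sets were lower and 3.02% higher. The mutant values lay wholly below the control values in 10 of the 24 and wholly above in 0, against 6.39% and 7.08% of all probe sets. Those 11 probe sets belong to Ccnd1, Ccnd2 and Cdk6 alone, and several read the same transcript, so they are not independent of each other.

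Counted by the brightest probe set, 8 of the 10 genes were lower, as were 46.4% of all genes, and the median log2 difference was -0.37 against 0.03 over all genes. For 3 of the 10 the unadjusted p was under 0.05 with a lower value (2.52% of all genes were so, and 4.40% higher). The same number, 3, had no overlap (5.43% of all genes lower and 9.44% higher). Without mutant 8711, 9 of the 24 probe sets were lower at an unadjusted p under 0.05 (3.70% of all probe sets) and the median over the 24 was -0.50 in place of -0.82. With that array left out, 11 of the 24 lay wholly below the controls (11.0% of all probe sets did so) and 1, Ccnd3 at 1438805_at, wholly above (14.5% of all probe sets). By the brightest probe set, again without mutant 8711, 8 of the 10 genes were lower, with a median of -0.27 against 0.02 over all genes. Of the 10, 2 were lower at an unadjusted p under 0.05 (3.97% of all genes). In 4 the mutants lay wholly below the controls (11.0% of all genes).

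**Figure D1:**
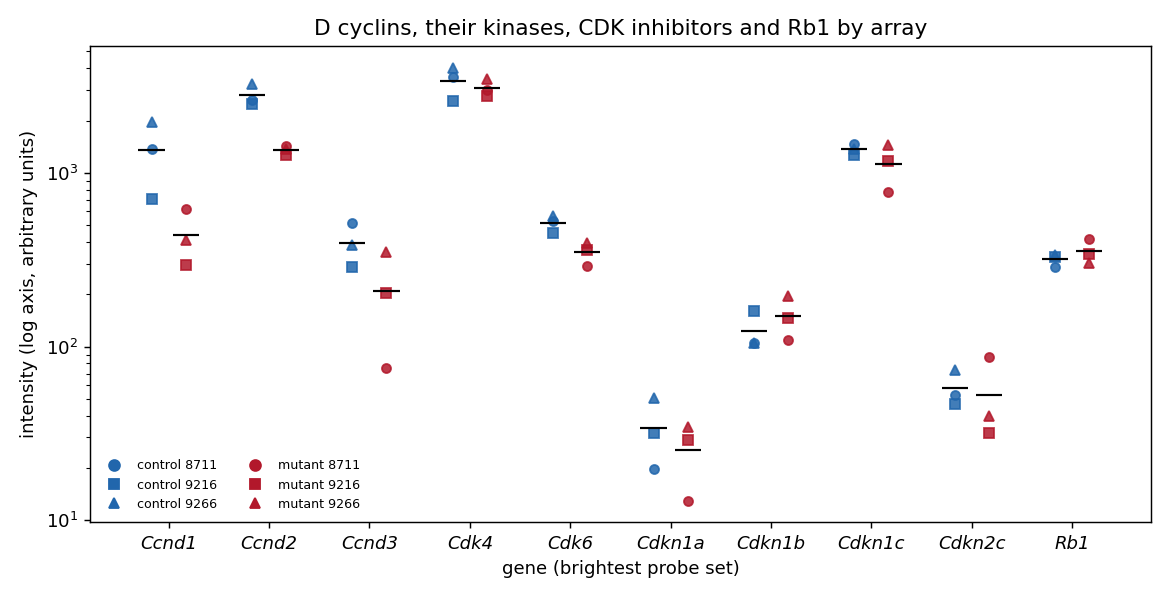
Intensity (log axis, arbitrary units) of the brightest probe set of each of the 10 genes, 1 point per array, with controls in blue, mutants in red, marker shape for the title number and a bar at the mean of 3 arrays. Mutant points lie below all control points for Ccnd1, Ccnd2 and Cdk6 and overlap them for the other genes. Levels of different genes come from different probes and are not comparable.

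Ccnd1 encodes cyclin D1. Its brightest probe set, 1448698_at, read 1368, 707 and 1962 across control arrays 8711, 9216 and 9266 and 619, 294 and 409 across the mutant arrays in that order. The groups did not overlap, although control 9216 and mutant 8711 were close. The group averages were 1346 ± 628 (SD, n = 3) for controls against 441 ± 165 (SD, n = 3) for mutants. The log2 difference was -1.55 (SE 0.44), with a 95% interval of -2.60 to -0.51 and an adjusted p of 0.667 in limma.

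The other Ccnd1 probe sets had the same direction. Probe set 1417420_at read 661, 826 and 822 against 223, 266 and 133, with a wide gap between the groups. Its log2 difference was -1.94 (SE 0.30), with a limma p of 3.35e-04 and an adjusted p of 0.356, which is the lowest adjusted value of the whole table and is shared with other probe sets. Probe set 1417419_at read 275, 304 and 191 against 19.7, 123 and 108, a difference of -1.93 (SE 0.69). Here mutant 8711 was far below the other mutants, and the difference was -1.11 without it. For 1448698_at and 1417420_at the differences without mutant 8711 were -1.83 and -2.02.

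Ccnd2 encodes cyclin D2. Its brightest probe set, 1434745_at, read 2632, 2482 and 3255 across the control arrays and 1430.1, 1261 and 1374 across the mutant arrays. The mutant values were close to each other and all below the lowest control. The averages were 2789.8 ± 410.0 (SD, n = 3) against 1355 ± 86.1 (SD, n = 3), so the control level was 2.06 times the mutant level. The log2 difference was -1.03 (SE 0.16), with a 95% interval of -1.42 to -0.65 and an adjusted p of 0.356 in limma, and it was -1.07 without mutant 8711.

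The 7 Ccnd2 probe sets differed in the size of the difference, from -1.03 to -4.04. The largest, at 1416123_at, came from 652, 314 and 421 in controls against 0.9, 80.8 and 90.3 in mutants. Mutant 8711 was almost without signal there, at 0.0105 of the average of the other mutants, and without it the difference was -2.35. Probe set 1448229_s_at read 2460.4, 1118 and 1834 against 33.1, 376 and 356, and its difference of -3.36 became -2.22 without that array. In the brightest probe set, mutant 8711 stood at 1.09 times the average of the other mutants.

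At 1455956_x_at, whose name marks a probe set that can share sequence with other transcripts, Ccnd2 read 2590.5, 2976 and 2961 against 704, 1490.0 and 1023, a difference of -1.47 (SE 0.28). At 1416122_at it read 1869, 2093 and 2318 against 367, 1095 and 929, a difference of -1.53 (SE 0.41), and at 1430127_a_at 486, 567 and 557 against 56.1, 316 and 222, a difference of -1.74 (SE 0.61). Mutant 8711 was the lowest array in each of the 3, and their differences without it were -1.20, -1.05 and -1.01. The dimmest probe set, 1416124_at, read 25.8, 34 and 23.3 against 4.8, 27 and 13.5 and was the 1 Ccnd2 probe set whose groups overlapped, with -1.04, or -0.48 without mutant 8711. Whether the spread between probe sets follows the high Gapdh 3 prime to 5 prime ratio of mutant 8711 was not tested.

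**Figure D2:**
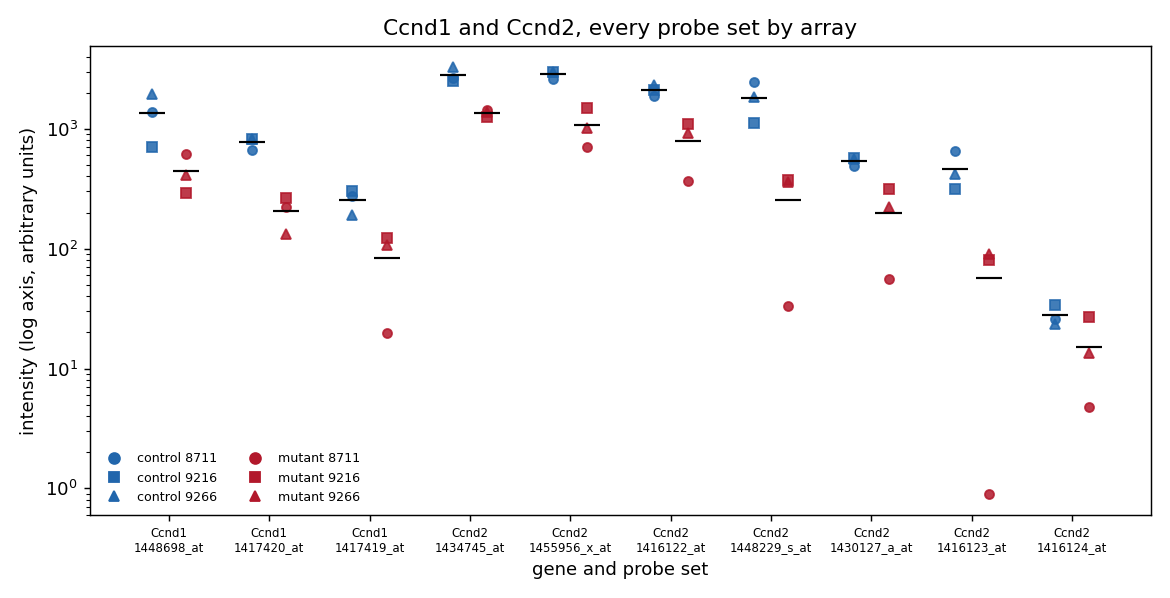
Intensity (log axis, arbitrary units) of the 3 Ccnd1 and 7 Ccnd2 probe sets, 1 point per array, with controls in blue, mutants in red, marker shape for the title number and a bar at the mean of 3 arrays. Mutant points lie below all control points except in 1416124_at, and mutant 8711 lies far below the other mutants in 1417419_at, 1448229_s_at and 1416123_at.

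Ccnd3 encodes cyclin D3, and its probe sets went both ways. The brightest, 1415907_at, read 516, 286 and 385 across the control arrays and 75.1, 203 and 351 across the mutant arrays. Mutant 9266 lay inside the control range, so the groups overlapped, and mutant 8711 was lowest. The log2 difference was -1.13 (SE 0.56), with a 95% interval of -2.47 to 0.21, or -0.52 without that array. The dimmer probe set 1438805_at read 38.1, 35 and 22.6 against 32.2, 46.8 and 46.6, and 1444323_at read 15.4, 23.3 and 26.1 against 20.8, 25.8 and 36.3, with overlap in both. Their differences of 0.39 and 0.33 had 95% intervals of -0.44 to 1.21 and -0.55 to 1.21.

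Cdk4 encodes a kinase partner of the D cyclins. Probe set 1422441_x_at read 3574, 2586 and 4033 across the control arrays and 2977, 2772 and 3482 across the mutant arrays, with every mutant value inside the control range. Its log2 difference was -0.13 (SE 0.20), with a 95% interval of -0.60 to 0.35. Probe sets 1422439_a_at and 1422440_at had differences of -0.08 and -0.11, with intervals of -0.59 to 0.42 and -0.78 to 0.56. The intervals hold changes of moderate size in either direction, and the sign of all 3 Cdk4 differences turned when control 9266 was left out.

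Cdk6 encodes the other kinase partner. Probe set 1455287_at read 525, 450.3 and 566 across the control arrays and 291, 358 and 397 across the mutant arrays, all below the lowest control. The averages were 514 ± 58.8 (SD, n = 3) against 348 ± 53.8 (SD, n = 3). The log2 difference was -0.56 (SE 0.21), with a 95% interval of -1.06 to -0.06 and an adjusted p of 0.852 in limma. Probe set 1435338_at read 523, 334 and 516 against 256, 207 and 374, a difference of -0.72 (SE 0.30), and there mutant 9266 lay above control 9216. Without mutant 8711 these differences were -0.44 and -0.68. The remaining probe set, 1460291_at, was under the intensity filter, at 0.6 to 11.8 over the 6 arrays.

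The CDK inhibitor genes had overlapping groups at every probe set. Cdkn1c, which encodes p57, read 1470.1, 1269 and 1376 across the control arrays and 776, 1174 and 1441 across the mutant arrays. Mutant 8711 was the low array, and the log2 difference of -0.32 (SE 0.25) was -0.07 without it. Cdkn1b, which encodes p27, read 105, 159.8 and 104 against 109.8, 146 and 195 at its brighter probe set, a difference of 0.28 (SE 0.32) with a 95% interval of -0.48 to 1.03. Its dimmer probe set, 1419497_at, read 63.9, 87.5 and 5.9 against 0.3, 52.1 and 59.2. Each group held 1 array almost without signal there, and the difference of -0.92 (SE 1.54) became 0.69 without mutant 8711.

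Cdkn2c, which encodes p18, read 52.7, 47 and 73.4 across the control arrays and 86.8, 31.8 and 39.7 across the mutant arrays, so mutant 8711 was the highest array of all and the other mutants the lowest. The log2 difference was -0.23 (SE 0.44), or -0.65 without mutant 8711. Cdkn1a, which encodes p21, was near the filter level, with 19.8, 31.9 and 50.9 against 13, 28.9 and 34.4. Its difference was -0.41 (SE 0.50), or -0.02 without mutant 8711, and its other probe set, 1421679_a_at, was under the filter at 2 to 4.5.

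Rb1, which encodes the retinoblastoma protein that cyclin D kinases phosphorylate, read 287, 328 and 336 across the control arrays and 416, 339 and 304 across the mutant arrays. Mutant 9266 lay among the controls while mutants 8711 and 9216 were above them. The log2 difference was 0.14 (SE 0.21), with a 95% interval of -0.35 to 0.64, and 0.02 without mutant 8711. Probe set 1444400_at was under the filter, at 2.1 to 15.

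**Figure D3:**
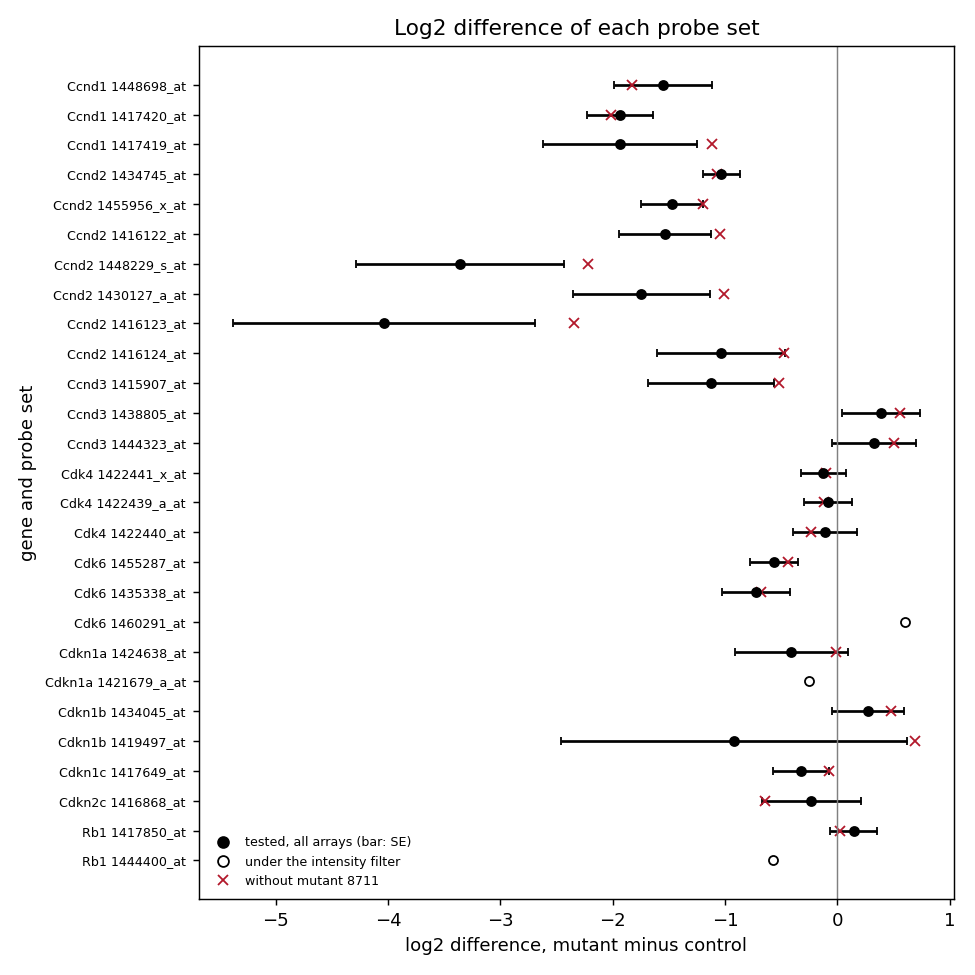
Log2 difference, mutant minus control, of all 27 probe sets (filled points with SE bars for the 24 tested, open points for the 3 under the intensity filter), with red crosses for the value without mutant 8711. Every Ccnd1 and Ccnd2 point and cross lies left of 0, and the Cdk4 points lie close to 0. The cross of the dimmer Cdkn1b probe set lies on the other side of 0 from its point.

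Within each title number, the mutant was below its control at every Ccnd1 and Ccnd2 probe set. Where all mutants lie below all controls, any pairing gives this sign, so it adds nothing to the lack of overlap. That was the case for all of these probe sets except the dimmest of Ccnd2. The log2 differences for 8711, 9216 and 9266 were -1.14, -1.26 and -2.26 for the brightest Ccnd1 probe set and -0.88, -0.98 and -1.24 for the brightest Ccnd2 probe set. Cdk6 at 1455287_at, whose groups did not overlap either, gave -0.85, -0.33 and -0.51. Signs were mixed for Cdkn1b at 1434045_at (0.07, -0.13 and 0.89) and for Rb1 (0.53, 0.05 and -0.14). For a single probe set, an exact permutation test of 3 against 3 arrays cannot give a p below 0.1.

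Other genes of this pathway were taken from lists. Of 15 other CDK inhibitors, pocket proteins and E2F factors, 10 were lower in the mutants, and the median log2 difference was -0.16. E2f7, a repressive E2F, read 349.6, 317 and 412 across the control arrays and 172, 241 and 203 across the mutant arrays, without overlap. Its difference was -0.81 (SE 0.23). E2f7 was the 1 gene of the list at an unadjusted p under 0.05, where 2.52% of all genes were lower so and 4.40% higher. E2f3, an activating E2F, read 644, 595 and 654 against 499.7, 487 and 474, also without overlap, a difference of -0.37. E2f1, another activating E2F, and E2f4, which acts mostly as a repressor with pocket proteins, had -0.68 and -0.71 with overlapping groups.

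The 12 other G1 and S phase cyclins and kinases had a median of -0.02, with 6 lower, 6 higher and 0 at an unadjusted p under 0.05. Cdc25a, a phosphatase that activates CDKs, had -0.65, Ccna2, the cyclin of S phase and G2, -0.50, Cdk2 -0.43 and Cdk1, the mitotic kinase, -0.37, all with overlap. Of 12 genes for the turnover of D cyclins and p27, 0 reached an unadjusted p under 0.05. Without mutant 8711 it was 1, which was lower, where 3.97% of all genes were lower so. Skp2, the receptor that marks p27 for destruction, had -0.60, and Fbxo4, an F-box protein, 0.68, both with overlap. Cul1, the scaffold of these ligases, read 1286, 1439 and 1249.6 against 1728, 1650.5 and 1661, with all mutants above the controls and a difference of 0.34. Rbx1, their RING subunit, had -1.49 with a mutant 8711 value of 2.2.

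Among 19 transcription factors that act upstream of D cyclin genes, 10 were lower and the median was -0.02. Myc read 259, 196 and 279 across the control arrays and 166, 99.4 and 153 across the mutant arrays, without overlap. Its difference was -0.82 (SE 0.29). Myc was the 1 gene of this list at an unadjusted p under 0.05, where 2.52% of all genes were lower so and 4.40% higher. Mycn, its relative in neural progenitors, read 836, 825 and 879.9 against 903, 472 and 530.0. Mutant 8711 was above all controls and the other mutants below them, and the difference was -0.47. Etv5, an ETS factor induced by FGF, had -0.90 and Foxo1, which opposes proliferation, 0.44, both with overlap. Without mutant 8711, 2 of the 19 were lower and 1 higher at an unadjusted p under 0.05. Of all 12282 genes, 3.97% were lower so and 670 genes were higher so in that setting.

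Of 35 E2F target genes of DNA replication, 32 were lower, with a median of -0.35. An unadjusted p under 0.05 was reached by 7, all lower, where 2.52% of all genes were lower so. In 10 of the 35 the mutant values lay wholly below the controls, against 5.43% of all genes. Uhrf1, which maintains DNA methylation at replication, read 918, 779 and 1300.0 across the control arrays and 394, 353 and 232 across the mutant arrays, a difference of -1.61 (SE 0.29). Ung, a uracil glycosylase, read 465, 662 and 481 against 263, 267 and 235, a difference of -1.05 (SE 0.22). For both genes every mutant value was below every control value, as it was for Tk1, a kinase of nucleotide salvage with a difference of -0.96, and Rfc5, a subunit of the clamp loader with -0.55. Without mutant 8711, 34 of the 35 were lower, the median was -0.53, and 19 were lower at an unadjusted p under 0.05, against 3.97% of all genes.

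Of 19 mitosis genes, 16 were lower, with a median of -0.19, and 1 was lower at an unadjusted p under 0.05, where 2.52% of all genes were. Without mutant 8711, 17 were lower with a median of -0.36, and 6 were so at an unadjusted p under 0.05, against 3.97% of all genes. Aurka, a spindle kinase, read 465, 424 and 432 against 231, 369.5 and 310.4, a difference of -0.56 (SE 0.23). Cdc20, an activator of the anaphase-promoting complex, had -0.30, Bub1b, a spindle checkpoint kinase, -0.37, and Top2a, a topoisomerase, -0.45. None of the genes named in these lists passed adjustment over all probe sets in limma.

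**Figure D4:**
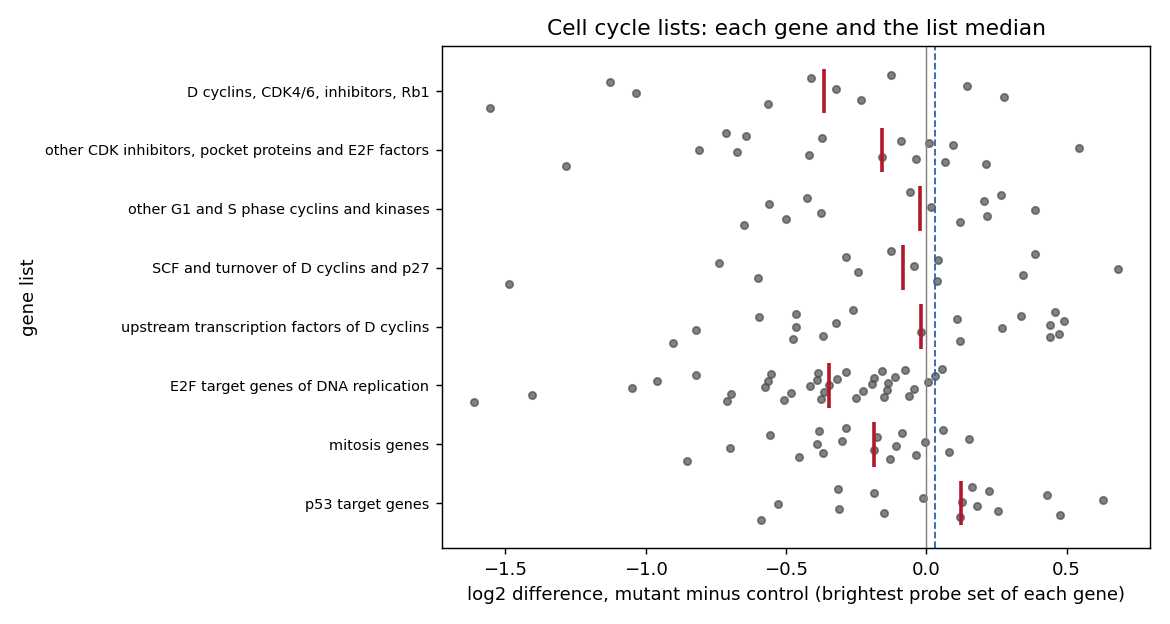
Log2 difference, mutant minus control, of every gene tested in the 8 pathway lists (grey points, brightest probe set of each gene, with height inside a list carrying no meaning), with a red bar at the median of each list and a dashed blue line at the median of all genes tested, 0.03. The medians of the D cyclin group (-0.37) and of the E2F targets (-0.35) lie farther left than those of the other 6 lists. Without mutant 8711, which is not drawn, these medians were -0.27 and -0.53, and that of the mitosis genes was -0.36.

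Levels of cell type markers are given here as well, and none passed adjustment over all probe sets in limma. Of all 12282 genes tested, 46.4% were lower in the mutants, and the median log2 difference was 0.03. Counts and medians below are over the markers tested, and summed intensities are over all named markers of a list, those under the intensity filter included. Of 12 neural retina progenitor markers tested, 11 were lower in the mutants, the median was -1.03, and the summed intensity of all 13 named was 7950.0 to 9243 against 4719 to 5443. Of 13 pigment epithelium markers, 13 were higher, the median was 1.09, and sums over all 15 named were 15098 to 17482 against 24508 to 39845. Neither pair of ranges overlapped. Of 9 neuron and ganglion cell markers 8 were lower (sums over all 14 named of 466 to 897 against 191 to 335), and of 14 periocular mesenchyme markers 13 were higher (sums of 1198 to 2518 against 2943 to 3426). Of 13 macrophage markers 9 were higher (sums of 1757 to 2533 against 2785 to 3507). Much of the macrophage sums came from the brightest marker, Csf1r, at 951, 873 and 859 against 1085, 1531 and 1192. As means of log2 values relative to the control mean, the highest control and lowest mutant were close for 2 lists. They were 0.455 and 0.480 for mesenchyme, and 0.298 and 0.311 for macrophage markers.

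The sums of the other lists overlapped between groups. They were 397 to 752 against 285 to 591 for the 10 endothelial markers, 13351 to 17837 against 17081 to 18383 for the 8 erythroid markers and 1817 to 3013 against 1310.5 to 2282 for the 9 lens markers. Of those tested, 5 of 8 endothelial markers were lower, 6 of 6 erythroid markers higher and 6 of 6 lens markers lower. No marker of these lists had a value of 0 in any array. Those under the intensity filter were Lrat and Ttr (pigment), Tbx5 (progenitor), Dcx, Isl1, Neurod1, Onecut1 and Stmn2 (neuron), Pecam1 and Tie1 (endothelium), Epor and Hba-a1 (erythroid), and Bfsp1, Foxe3 and Mip (lens). The part of these cell types in the D cyclin and E2F target values was not tested, and in bulk tissue fewer cells of a type and less RNA per cell cannot be told apart.

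**Figure D5:**
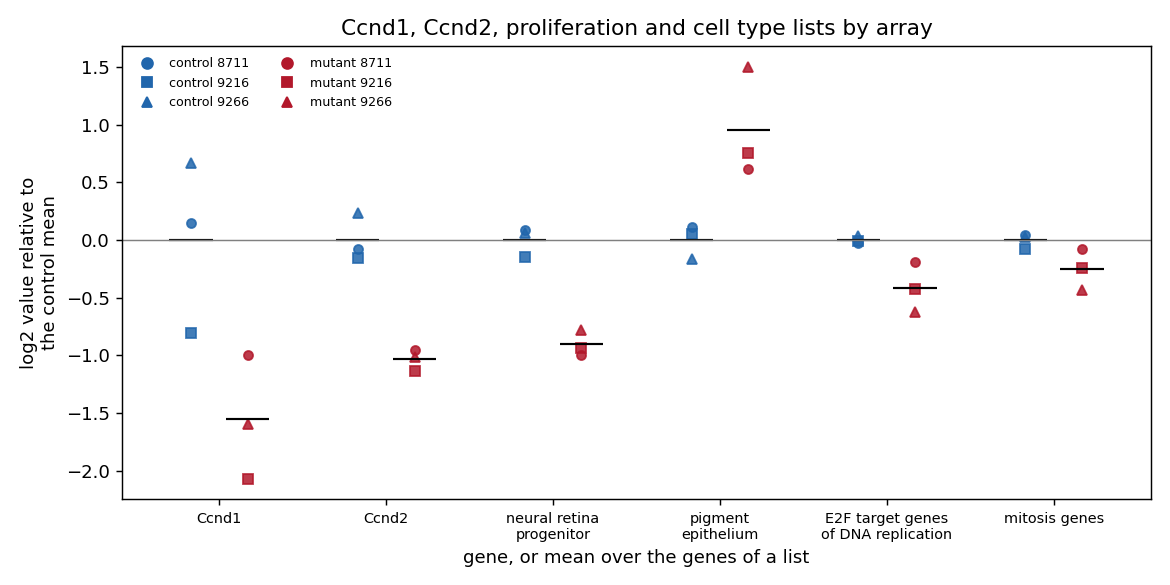
Log2 value relative to the control mean, 1 point per array, for Ccnd1 and Ccnd2 (brightest probe set) and for the mean over the genes of 4 lists, with controls in blue, mutants in red, marker shape for the title number and a bar at the mean of 3 arrays. In the mutants, progenitor means run from -0.99 to -0.78, pigment means from 0.61 to 1.5, and E2F target means from -0.63 to -0.19, each apart from the controls. Mitosis means overlap, from -0.43 to -0.0746 in the mutants, with control 9216 at -0.0748.

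The order within the mutants was not the same for all of these values. The mean over E2F targets was lowest in mutant 9266 (-0.63) and nearest the controls in mutant 8711 (-0.19), while Ccnd1 at its brightest probe set was lowest in mutant 9216 and highest in mutant 8711. The pigment mean was highest in mutant 9266 (1.5, against 0.61 and 0.75). Control 9216 was the lowest control for Ccnd1 at its brightest probe set, but the highest at 1417420_at and 1417419_at. It was the lowest control for the mesenchyme mean (-0.74) and the macrophage mean (-0.59).

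The genes whose profile over the 6 arrays was most like that of Ccnd1, out of 12272 genes, were Hmx1, Sfrp2, Garem2, Atp6v1b1 and Tubb3. Likeness was the root mean square difference of log2 values, each gene set to its own control mean, and it ran from 0.15 for Hmx1 to 0.31 for Tubb3. Hmx1, a homeobox gene, had average intensities of 643 against 232, and Sfrp2, a secreted Wnt modulator that is also in the progenitor list, of 1861 against 765. Tubb3, a neuronal tubulin, is also in the neuron list. For Ccnd2 the closest were Pkdcc (0.10), Itpka, Sorcs1, Slc13a3 and Ada (0.16). Pkdcc, a secreted kinase, averaged 609.9 against 296. For Cdkn1b they were Ppp1r14c (0.09), Pgap1, Drp2, Arsi and Grin2d (0.12), whose log2 differences lay between 0.28 and 0.39.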

How the data were processed

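Total RNA from 6 microdissected optic fissure samples was made into biotinylated cRNA and hybridised to Affymetrix arrays, per the labels' protocols. The authors deposited 1 linear intensity per probe set for each array, computed with MAS5 per the submitters' processing notes. Version and options of MAS5 are not given in the sources used here. Every array had a 2% trimmed mean of 150, and the values were used without further scaling, as log2(intensity + 1.7), where 1.7 is the 10th percentile, so differences of dim probe sets are understated. The 64 manufacturer controls, and probe sets with a mean log2 value under the 40th percentile (4.07), were left out of the test, which left 27022 probe sets, for 12282 genes with 1 symbol. The platform annotation gave 34945 probe sets 1 symbol, 932 several and 9160 none. A gene is represented by its brightest probe set.

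Groups were compared with limma 3.58.1 (R 4.3.3) by lmFit and eBayes, trend and robust options on, adjusting by Benjamini-Hochberg over all tested probe sets at 0.05. The code was tested on simulated data. Figures were drawn with matplotlib 3.10.9. The number of arrays limits the precision. Genes, lists, motifs and tests were chosen with earlier results of these data known. Named genes are all probe sets of the 10 genes, up to 4 genes of each pathway list by smallest p, the 5 most alike to Ccnd1, Ccnd2 and Cdkn1b, and both targeted receptors. Alternatives changed the added constant, the filter, the normalization (quantile, or centring on the median), the variance model, the use of array weights, the probe sets averaged per gene, a block for the title number, and which arrays entered. Counts without mutant 8711 for probe sets and lists were added after seeing the data.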

Additional observations from a re-analysis of the deposited data

How the results depend on the processing

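Each tested Ccnd1, Ccnd2, Ccnd3 and Cdk6 probe set kept the sign of its difference under the alternatives run, and of 379 values of the 24 probe sets under an alternative, 360 kept both sign and side of the threshold. The number of probe sets called in limma was 0 in most settings. It was 184 with array weights (the weight of mutant 8711 was 0.151) and 1, that of Xist, without both arrays numbered 8711. With 1 array left out it ran from 0 to 1, again Xist, without mutant 8711. Xist was lower in the mutants in both settings, with log2 differences of -7.33 and -6.84 in that order. Whether the groups differ in embryo sex, on which Xist expression depends, was not tested, nor was its part in the values without mutant 8711. Array weights brought 2 probe sets of Ccnd1 and 3 of Ccnd2 past the threshold, with adjusted p from 0.0265 to 0.0440 in limma. Control 8711 had a weight of 5.98 in that setting, against 0.625 for control 9216 and 1.52 for control 9266. The control side of these calls therefore rests largely on 1 array. Deviations from the group means correlated between the control and mutant of a title number at 0.0493, 0.481 and -0.113 for 8711, 9216 and 9266. Mutant 9216 alone correlated best with its own number. With so few arrays per group, and mutant 8711 set apart, these values cannot show whether the numbers mark pairs. With the number as a replicate block 0 probe sets were called, and the block changed no call of the 10 genes, whose adjusted p lay between 0.765 and 0.875. Median centring moved the median of all probe sets by 0.111 and left 1 of 10 genes, Ccnd2, without overlap in place of 3. With 1 array left out that count ran from 3 to 6. The 6 were 5 lower with Cdkn1b higher (without control 9216), or 5 lower with Rb1 higher (without mutant 9266). Lack of overlap is commoner with fewer arrays. Without mutant 8711, 11.0% of all genes lay wholly below and 15.3% wholly above, against 5.43% and 9.44% with all arrays. These shares were not computed for median centring or for the other arrays left out, so those counts cannot be set against all genes. Cdk4 turned to 0.027 (1422439_a_at) and 0.00093 (1422440_at) with median centring, and with 1 array left out ran from -0.31 to 0.011 (1422441_x_at), -0.27 to 0.044 (1422439_a_at) and -0.36 to 0.099 (1422440_at). The dimmer Cdkn1b probe set had 0.023 with array weights and 1.14 without both 8711 arrays, and ran from -2.03 to 0.69 with 1 left out. Cdkn1a had 0.22 with array weights, Rb1 had -0.048 without both 8711 arrays, and Cdkn2c ran from -0.65 to 0.052 with 1 left out. The causes were not tested.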

Other observations

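Targets of p53, the factor that drives Cdkn1a, had no common direction. Of 16 tested, 7 were lower and 9 higher, with a median log2 difference of 0.12 (all 6 arrays) and 0 at an unadjusted p under 0.05 in limma. Trp53inp1, a nuclear protein induced by p53, read 838, 1329 and 896 across control arrays 8711, 9216 and 9266 and 1448, 2079.5 and 1232 across the mutant arrays, a difference of 0.63 (SE 0.27). Mutant 9266 was below control 9216, so the groups overlapped. Plk2, a kinase, had -0.53, Aen, a nuclease, -0.59 and Rrm2b, a subunit of ribonucleotide reductase, 0.43, all with overlapping groups. Without mutant 8711 the median was -0.00020, with 8 of 16 lower, and 2 were lower and 2 higher at an unadjusted p under 0.05. Of all 12282 genes, 3.97% were lower so and 670 genes were higher so in that setting.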
